A study of Mus musculus with 4 samples.

Results

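Neutrophil granule protein genes were followed in 4 RNA-seq libraries of mouse hematopoietic stem cells (HSCs) with or without the transcriptional repressor Gfi1b. The set comprised 10 of the 37140 genes listed in all 4 count files: Mpo, Elane, Prtn3 and Ctsg of the primary granules, Ltf, Camp, Ngp and Lcn2 of the secondary granules, and the S100 genes S100a8 and S100a9. The genes were chosen by their measured levels in these libraries and their KO/WT ratios in both populations, so that those values are given here as a description and carry no test.

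HSCs (Lin- cKit+ Sca1+ CD48- CD150+) and the CD41low/CD9low subset of HSCs were sorted from lineage-depleted bone marrow of C57Bl6 mice. Each population was sequenced once per genotype. The methods give no CD41 or CD9 gate for the HSCs, whereas the study's results call them CD41+/CD9+ HSCs. Calling the CD41low/CD9low cells a subset follows the methods, and the gates may instead be separate. The Gfi1b KO libraries came from 5 pooled Rosa-Cre Gfi1b fl/fl mice, in which tamoxifen releases a Cre recombinase expressed from the ubiquitous Rosa26 locus. The Gfi1b WT libraries came from 10 pooled mice, described in the methods as Rosa-Cre Gfi1b wt/fl, which also carry Cre and 1 floxed allele, and in the GEO text as floxed mice that may lack Cre. Both genotypes received tamoxifen, the mice were matched for age and sex, and their age is not given in the sources used here.

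Neutrophils fill their granules in the order in which they mature. Primary (azurophil) granules are loaded with myeloperoxidase and serine proteases at the promyelocyte stage, and secondary (specific) granules with lactoferrin and other antimicrobial proteins at the myelocyte stage, while S100a8 and S100a9 are not granule proteins but abundant cytosolic partners of the same lineage. Transcripts of primary granule proteins are also found at low level in immature progenitors, and C/EBP factors, PU.1, Runx1, Myb and the Gfi1b paralog Gfi1 are known regulators of granule genes.

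The windows at the RefSeq starts are shown first, because primary and secondary granule genes are known to respond to different factors. RefSeq start windows (GRCm38.p6, from 250 bases before to 50 after the start) were available for all 10 genes, and bases that GENCODE M21 places in an exon are left out of the print. By GENCODE coordinates the windows of Prtn3 and Lcn2 lie inside the genes, so that their matches are not upstream of the GENCODE starts. For the primary granule genes below, capitals mark GAGGAA, a core recognized by PU.1, read on either strand. Prtn3 and Elane are shown because they lie side by side yet differed in their KO/WT ratios, and Ctsg because it had the lowest ratio of the 10.
Prtn3 (chr10:79879417-79879613, plus strand): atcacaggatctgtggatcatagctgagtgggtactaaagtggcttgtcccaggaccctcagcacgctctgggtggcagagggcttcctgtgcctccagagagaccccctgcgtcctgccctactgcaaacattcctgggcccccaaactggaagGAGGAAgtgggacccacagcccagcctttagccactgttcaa
Elane (chr10:79886062-79886246, plus strand): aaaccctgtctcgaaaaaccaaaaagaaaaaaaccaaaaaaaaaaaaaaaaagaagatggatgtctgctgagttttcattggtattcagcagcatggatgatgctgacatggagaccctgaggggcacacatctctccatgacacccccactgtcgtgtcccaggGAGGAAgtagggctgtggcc
Ctsg (chr14:56102575-56102824, minus strand): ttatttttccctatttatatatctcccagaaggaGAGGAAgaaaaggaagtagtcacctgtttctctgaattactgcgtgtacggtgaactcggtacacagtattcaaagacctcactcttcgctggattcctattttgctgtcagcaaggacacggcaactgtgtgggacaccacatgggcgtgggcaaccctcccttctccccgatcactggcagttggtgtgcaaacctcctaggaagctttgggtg

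For the next genes, capitals mark TTNCNNAA, a C/EBP half-site pair, on either strand. Ltf, Ngp and S100a9 are shown because their printed stretches hold 2 matches each, and Camp because its window holds 0. Of the 250 bases before the Camp start only 89 are printed, since GENCODE places the others in an exon. All of these genes were highest in the same library, WT CD41low/CD9low HSCs, and a link between matches and levels was not tested.
Ltf (chr9:111019042-111019270, plus strand): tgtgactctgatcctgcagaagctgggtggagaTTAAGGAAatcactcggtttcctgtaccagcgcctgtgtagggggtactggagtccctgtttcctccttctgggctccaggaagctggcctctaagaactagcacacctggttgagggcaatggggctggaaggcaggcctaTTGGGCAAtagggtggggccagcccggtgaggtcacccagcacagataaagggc
Ngp (chr9:110419558-110419746, plus strand): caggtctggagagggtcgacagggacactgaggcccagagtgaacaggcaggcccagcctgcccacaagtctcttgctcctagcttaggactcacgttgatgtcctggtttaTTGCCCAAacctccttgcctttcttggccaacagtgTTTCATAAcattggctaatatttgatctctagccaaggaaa
S100a9 (chr3:90695722-90695971, minus strand): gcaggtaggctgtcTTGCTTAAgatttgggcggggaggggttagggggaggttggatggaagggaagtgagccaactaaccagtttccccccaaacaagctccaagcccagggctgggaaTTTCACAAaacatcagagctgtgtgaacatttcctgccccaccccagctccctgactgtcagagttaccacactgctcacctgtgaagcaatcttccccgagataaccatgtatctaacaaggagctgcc
Camp (chr9:109849618-109849706, minus strand): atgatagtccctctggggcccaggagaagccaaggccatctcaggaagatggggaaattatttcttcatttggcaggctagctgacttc

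GAGGAA was found in the full windows of 4 of 4 primary granule genes, 2 of 4 secondary granule genes and 1 of 2 S100 genes, against 28.3% of 32851 promoter windows. TTNCNNAA was found in 0 of 4 primary granule genes, 3 of 4 secondary granule genes (Ltf, Ngp and Lcn2) and 2 of 2 S100 genes, against 40.7% of all windows. AATC, the core shared by Gfi1 and Gfi1b, was present in 6 of 10 windows against 73.1% of all, the Runx core TGTGGT in 3 of 10 against 16.8%, and the Myb motif AACNG in 10 of 10 against 80.3%. Matches of different motifs overlapped at 5 places, among them AATC with TTNCNNAA in Ltf. A match describes letters in the window and not a bound site.

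The libraries held 12732079 to 50781007 counts on genes, and 3 counts, taken as the limit of detection, corresponded to 0.0591 to 0.236 CPM (counts scaled to a library total of 1000000). All 12 HSC marker genes were detected in every library, with a summed level of 2859 to 3288 CPM, and Itga2b, which encodes CD41, was lower in the CD41low/CD9low libraries (136 and 205 CPM) than in the HSC libraries (547 and 691 CPM). The count on the whole Gfi1b gene was higher in the libraries labelled KO, at 182 CPM in WT HSCs, 1197 CPM in KO HSCs, 48.0 CPM in WT CD41low/CD9low HSCs and 509 CPM in KO CD41low/CD9low HSCs. A whole-gene count does not show the loss of the floxed exons, so that the deletion could not be checked from these files. The study examined the floxed exons from exon-level reads, which were not used here. Genotypes are those of the labels, whose genotype field names Gfi1b while the sample titles name its paralog Gfi1. The HSC and the CD41low/CD9low files list 38293 and 41214 genes, from different annotation releases, which adds an uncertainty to every comparison between populations. With 1 library per group no test between genotypes or populations was possible, and every interval below is a 95% interval that covers counting error only.

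Mpo encodes myeloperoxidase, which makes hypochlorous acid, and was the most abundant of the 10 genes by CPM in both HSC libraries. Its level was 174 CPM in WT HSCs, 258 CPM in KO HSCs, 121 CPM in WT CD41low/CD9low HSCs and 20.5 CPM in KO CD41low/CD9low HSCs. The KO CD41low/CD9low library was far below the other libraries, and the KO HSC library was the highest. The KO/WT ratio of normalized counts was 1.5 (1.46 to 1.55) in HSCs but 0.170 (0.151 to 0.190) in the CD41low/CD9low subset. The gene (chr11:87793581-87804413, mm10) shares 512 exonic bases with the antisense gene Gm11505, which itself had 0 to 9 counts per library.

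Elane encodes neutrophil elastase, a serine protease. It stood at 41.0 CPM in WT HSCs, 50.2 CPM in KO HSCs, 49.4 CPM in WT CD41low/CD9low HSCs and 9.57 CPM in KO CD41low/CD9low HSCs. The first 3 libraries lay close together, and the KO CD41low/CD9low library was, as for Mpo, the lowest. KO/WT was 1.24 (1.17 to 1.32) in HSCs, whereas it was 0.194 (0.164 to 0.229) in CD41low/CD9low HSCs.

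Ctsg encodes cathepsin G, another serine protease of the same granules. Its level was 46.5 CPM in WT HSCs, 47.1 CPM in KO HSCs, 43.4 CPM in WT CD41low/CD9low HSCs and 3.87 CPM in KO CD41low/CD9low HSCs, the latter from 74 counts. The first 3 libraries were nearly level. The ratio was 1.03 (0.967 to 1.09) in HSCs, where the interval included 1, and 0.0892 (0.0690 to 0.114) in CD41low/CD9low HSCs, the lowest of the 10 genes.

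Prtn3, which encodes proteinase 3, departed from this pattern. It had 80.0 CPM in WT HSCs, 54.1 CPM in KO HSCs, 112 CPM in WT CD41low/CD9low HSCs and 62.1 CPM in KO CD41low/CD9low HSCs. Both KO libraries were below the WT libraries of their population, and no library stood apart. KO/WT was 0.685 (0.650 to 0.722) in HSCs, the lowest value of the set there, and 0.555 (0.513 to 0.599) in CD41low/CD9low HSCs, the highest value of the set there. Prtn3 shares 159 exonic bases with Plppr3 on the opposite strand, which had 3206 counts in WT HSCs, 1621 in KO HSCs, 2251 in WT CD41low/CD9low HSCs and 2687 in KO CD41low/CD9low HSCs. The methods name a stranded library kit, but the strand setting of the counting is not given in the sources used here. Reads of the shared stretch, and with them the Prtn3 values, are therefore uncertain, and their part in the result was not tested.

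The proportions within the primary granule genes therefore differed between libraries. Prtn3 contributed 23.4% of their 4-gene sum in WT HSCs, 13.2% in KO HSCs, 34.4% in WT CD41low/CD9low HSCs and 64.7% (62.4 to 66.9) in KO CD41low/CD9low HSCs. Ctsg contributed 13.6%, 11.5% and 13.3% in the first 3 libraries and 4.03% (3.18 to 5.03) in the KO CD41low/CD9low library. Prtn3 and Elane lie 3073 bases apart on chromosome 10, and their count ratio was 1.95, 1.08, 2.27 and 6.49 in the same order of libraries. Mpo over Elane moved less, between 2.14 and 5.14.

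**Figure D1:**
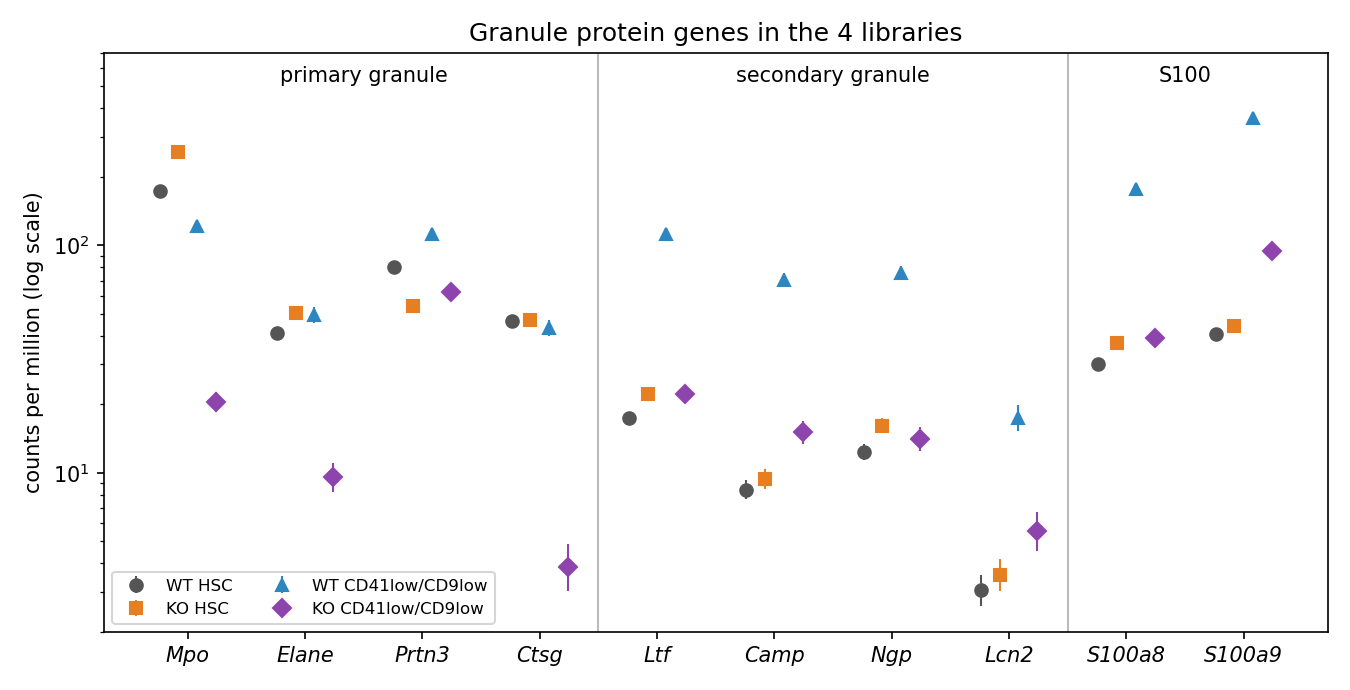
Level of each granule protein gene in each of the 4 libraries, in CPM on a log axis, with exact Poisson 95% intervals (many are smaller than the symbols). For Mpo, Elane and Ctsg the KO CD41low/CD9low library (diamonds) lies below the other 3 libraries, whereas for Ltf, Camp, Ngp, Lcn2, S100a8 and S100a9 the WT CD41low/CD9low library (triangles) lies above the others.

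Secondary granule genes showed another arrangement. Ltf, which encodes the iron-binding protein lactoferrin, had 17.4 CPM in WT HSCs, 22.3 CPM in KO HSCs, 112 CPM in WT CD41low/CD9low HSCs and 22.2 CPM in KO CD41low/CD9low HSCs. Only the WT CD41low/CD9low library was high, and the KO library of that population was level with KO HSCs. KO/WT was 1.30 (1.19 to 1.43) in HSCs but 0.199 (0.178 to 0.222) in the CD41low/CD9low subset.

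Camp encodes the precursor of the cathelicidin antimicrobial peptide. Its level was 8.43 CPM in WT HSCs, 9.40 CPM in KO HSCs, 70.6 CPM in WT CD41low/CD9low HSCs and 15.1 CPM in KO CD41low/CD9low HSCs. The HSC libraries were lowest and nearly equal, and the WT CD41low/CD9low library was again the highest. The KO/WT ratio was 1.13 (0.983 to 1.30) in HSCs, whereas it was 0.214 (0.186 to 0.244) in CD41low/CD9low HSCs.

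Ngp, the gene of neutrophilic granule protein, a relative of the cystatins and cathelicidins, was measured at 12.3 CPM in WT HSCs, 16.1 CPM in KO HSCs, 75.9 CPM in WT CD41low/CD9low HSCs and 14.1 CPM in KO CD41low/CD9low HSCs. Again 1 library was high and the other 3 lay together. KO/WT was 1.32 (1.18 to 1.48) in HSCs but 0.186 (0.162 to 0.213) in the CD41low/CD9low subset.

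Lcn2 encodes lipocalin 2, which binds bacterial siderophores, and was the least abundant of the 10 genes in both HSC libraries. It had 3.05 CPM in WT HSCs, 3.57 CPM in KO HSCs, 17.4 CPM in WT CD41low/CD9low HSCs and 5.54 CPM in KO CD41low/CD9low HSCs, from 106 to 222 counts per library. The order of libraries was that of Camp. KO/WT was 1.19 (0.941 to 1.5) in HSCs, an interval that included 1, and 0.318 (0.250 to 0.403) in CD41low/CD9low HSCs.

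S100a8 and S100a9 encode the subunits of calprotectin, a calcium- and zinc-binding complex of the neutrophil cytosol. S100a8 had 30.1 CPM in WT HSCs, 37.3 CPM in KO HSCs, 176 CPM in WT CD41low/CD9low HSCs and 39.0 CPM in KO CD41low/CD9low HSCs. S100a9 had 40.6 CPM in WT HSCs, 44.4 CPM in KO HSCs, 363 CPM in WT CD41low/CD9low HSCs and 94.6 CPM in KO CD41low/CD9low HSCs. Both were highest in the WT CD41low/CD9low library, and S100a9 there exceeded 99.7% of the genes with at least 10 counts when levels were taken per kilobase. KO/WT of S100a8 was 1.25 (1.17 to 1.35) in HSCs, whereas it was 0.221 (0.203 to 0.241) in CD41low/CD9low HSCs. For S100a9 the ratios were 1.11 (1.04 to 1.18) and 0.261 (0.247 to 0.275). The pair did not keep a fixed proportion, since S100a9 counts exceeded S100a8 counts 1.35- and 1.19-fold in the WT and KO libraries of HSCs, but 2.06- and 2.43-fold in those of the CD41low/CD9low subset.

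**Figure D2:**
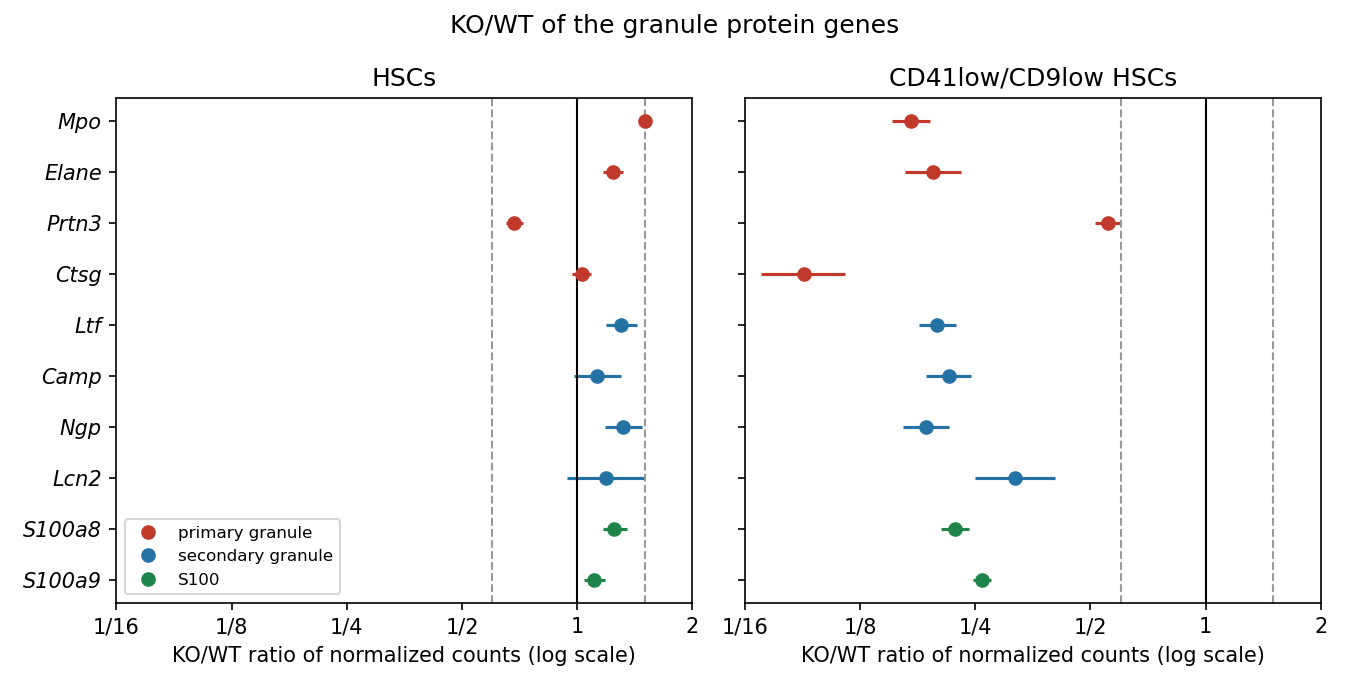
KO/WT ratio of normalized counts for each gene in HSCs (left) and CD41low/CD9low HSCs (right), on a log axis, with 95% counting intervals; dashed lines mark 0.6 and 1.5 and the solid line marks 1. In HSCs the ratios run from 0.685 for Prtn3 to 1.5 for Mpo, and in CD41low/CD9low HSCs from 0.0892 for Ctsg to 0.555 for Prtn3.

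Fold limits of 1.5 and 0.6, applied to genes with at least 10 counts in 1 library of a pair, which all 10 genes passed, summarize these values. In HSCs 1 of 10 genes (Mpo) exceeded 1.5, a level passed by 14.1% of 15910 genes, and 0 of 10 were below 0.6, against 10.3%. Their median ratio was 1.21, and the median of all genes was 0.00 on the log2 scale. Mpo was on the limit, at 1.48 to 1.5 under every scaling tried, and under other scalings 0 of 10 genes passed. In CD41low/CD9low HSCs 10 of 10 genes were below 0.6, against 12.0% of 14844 genes, and 0 of 10 exceeded 1.5, against 13.5%. The median ratio was 0.206, or -2.28 on the log2 scale against 0.00 for all genes. Since this contrast was among the values that chose the genes, nothing is read from these counts.

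The KO/WT ratios of both populations differed by more than counting error for every member. The share of all genes for which this holds was not computed. These ratios were among the values that chose the genes, so that nothing is read from this. The ratio in CD41low/CD9low HSCs over that in HSCs was 0.0869 (0.0667 to 0.112) for Ctsg, 0.113 (0.10 to 0.127) for Mpo and 0.156 (0.131 to 0.187) for Elane. It was 0.141 to 0.268 for the secondary granule genes and 0.176 and 0.235 for S100a8 and S100a9. For Prtn3 it was 0.809 (0.737 to 0.889), the value nearest to 1.

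Compared between populations within a genotype, the classes separated in WT but not in KO. In WT, the 4 secondary granule and both S100 genes were 5.38-fold (Lcn2) to 8.42-fold (S100a9) higher in CD41low/CD9low HSCs than in HSCs, and these 6 were the genes that exceeded 1.5, against 18.6% of all genes. Primary granule genes were nearer to equal, at 0.654 (0.619 to 0.690) for Mpo, 0.880 for Ctsg, 1.13 for Elane and 1.32 for Prtn3. In KO, Mpo (0.0747), Ctsg (0.0773) and Elane (0.179) were lower in CD41low/CD9low HSCs than in HSCs, and 3 of 10 genes were thus below 0.6, against 21.1% of genes. Prtn3, also a primary granule gene, was at 1.08 (1.01 to 1.16) and so lay among the values of the other classes. Ltf (0.936), Ngp (0.825) and S100a8 (0.982) were close to their HSC level, and Lcn2 was at 1.46 (1.13 to 1.88). Above 1.5 were 2 of 10 genes, Camp (1.51) and S100a9 (2.0), against 18.4%. These comparisons share libraries with the KO/WT ratios above and add no separate evidence.

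Summed by class, primary granule genes amounted to 342 CPM in WT HSCs, 410 CPM in KO HSCs, 326 CPM in WT CD41low/CD9low HSCs and 96.1 CPM in KO CD41low/CD9low HSCs. Secondary granule genes amounted to 41.2, 51.4, 276 and 56.9 CPM, and the S100 pair to 70.8, 81.8, 540 and 134 CPM in the same order. The primary class was thus lowest in KO CD41low/CD9low HSCs, and the other classes were highest in WT CD41low/CD9low HSCs. Class KO/WT in CD41low/CD9low HSCs was 0.295 (0.279 to 0.312) for primary, 0.207 (0.193 to 0.221) for secondary and 0.248 (0.237 to 0.259) for S100 genes. Without Prtn3 the primary class had a ratio of 0.159 (0.146 to 0.173), so that its place among the classes depended on that gene.

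**Figure D3:**
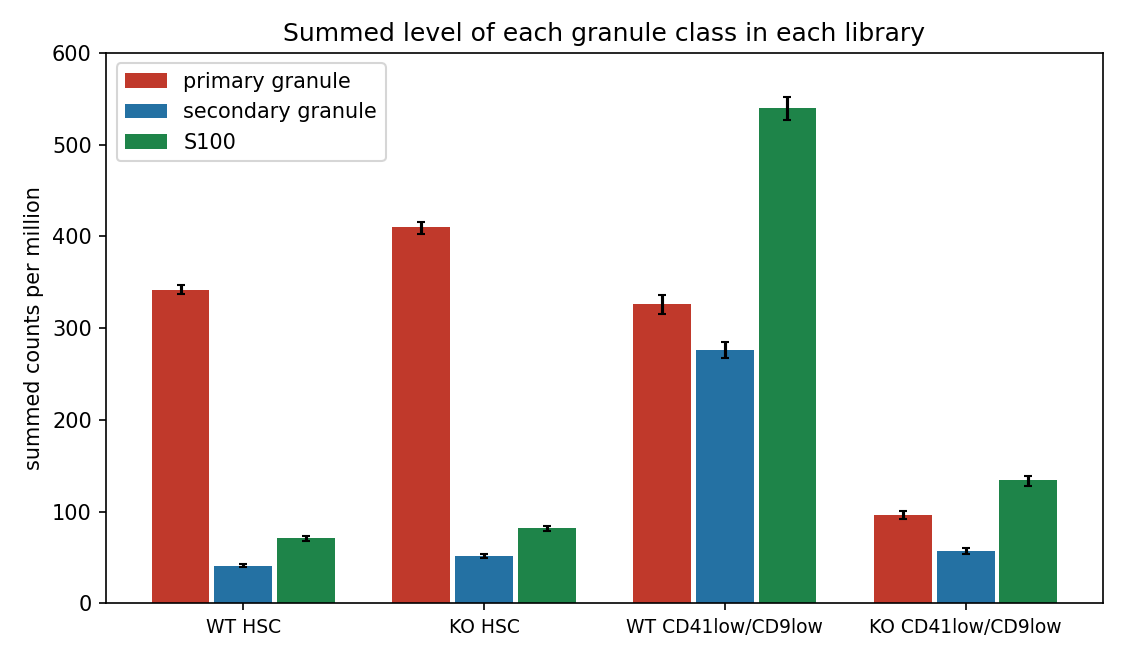
Summed level of the 4 primary granule, 4 secondary granule and 2 S100 genes in each library, in CPM, with 95% Poisson intervals. Primary granule genes are the tallest bars in both HSC libraries (342 and 410), and the S100 pair is tallest in both CD41low/CD9low libraries (540 and 134).

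The balance of early and later granule transcripts, counted as primary over secondary counts, was 8.29 (7.92 to 8.68) in WT HSCs and 7.97 (7.62 to 8.34) in KO HSCs. It was 1.18 (1.13 to 1.24) in the WT and 1.69 (1.56 to 1.82) in the KO library of the CD41low/CD9low subset. Primary granule counts exceeded secondary granule counts in all 4 libraries, by a wide margin in HSCs and a narrow one in CD41low/CD9low HSCs. In CD41low/CD9low HSCs this rested on Prtn3, since without it, an alternative added after seeing the data, the balance was 6.35, 6.91, 0.775 (0.737 to 0.815) and 0.596 (0.540 to 0.657) in the same order. The excess then became a deficit in both CD41low/CD9low libraries, and the KO value was below rather than above the WT value. Both ways of counting gave a far lower balance in CD41low/CD9low HSCs than in HSCs. In a bulk library, fewer cells of a stage and less RNA per cell cannot be told apart.

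Among the 6 secondary granule and S100 genes the proportions were steadier. Ltf contributed 11.7% to 16.8% of their sum in the 4 libraries, Camp 7.06% to 8.66%, Ngp 7.41% to 12.1% and Lcn2 2.14% to 2.91%. S100a9 contributed 36.3% (WT) and 33.4% (KO) in the HSC libraries but 44.6% (WT) and 49.7% (KO) in the subset, while S100a8 contributed 20.4% to 28.0%.

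Per kilobase of exon, which allows genes to be compared with each other, S100a9 was the highest of the 10 genes in every library, at 77.8, 85.1, 696 and 181 CPM per kilobase. In WT HSCs it was followed by Mpo (50.8), and Prtn3 (46.2), Ctsg (45.0), S100a8 (43.4) and Elane (41.7) were neighbours whose intervals overlapped from one to the next. Camp (11.1), Ngp (10.1), Ltf (5.03) and Lcn2 (1.16) were lower. In WT CD41low/CD9low HSCs, S100a8 (254) and Camp (93.2) came next after S100a9, Prtn3 (64.8) and Ngp (62.1) had overlapping intervals, and Mpo (35.3) and Ltf (32.4) did too. In KO CD41low/CD9low HSCs Ctsg (3.75) and Lcn2 (2.11) were at the bottom, and Mpo (5.99) was 8th.

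The genomic neighbours were examined because several of these genes lie in clusters. Beyond Elane, Cfd, the complement factor D gene, was listed at 0 in all 4 libraries, as was Lpo, the lactoperoxidase gene next to Mpo. On chromosome 14, Mcpt8, which encodes a basophil protease and lies 14608 bases from Ctsg, had 529, 795, 68 and 0 counts in WT HSCs, KO HSCs, WT and KO CD41low/CD9low HSCs. Like Ctsg, it was lowest in the KO CD41low/CD9low library. Ptbp1, a splicing regulator before Prtn3, had 15880, 12105, 3747 and 5736 counts. These neighbour counts are raw and come from libraries of unequal depth. Ltf, Camp and Ngp lie on chromosome 9 with unrelated genes such as Cdc25a and Klhl18 between or beside them.

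Genes with profiles most like the median of the members were sought over the 4 libraries among 13295 genes with at least 50 counts in 1 library, by root mean square distance of centred log2 values. The nearest was Chil3 (distance 0.0695, against a median of 1.01 over genes), a chitinase-like protein of neutrophils and macrophages, with 363, 370, 460 and 156 counts. Then came Slc37a2, Itgb5, Matn2, Cxadr, Vwa1, Slc6a17, AB124611, Ptpru and Cux2 (0.227), most of them below 100 counts per library. Of the members, S100a8 (0.0385), Ltf (0.0853) and Ngp (0.104) were nearest to the median and Mpo (1.67) and Ctsg (1.62) farthest. A profile over 4 points is a description.

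Other genes of the granule program were taken from lists of 10 promyelocyte genes and 14 secondary granule genes. Of 9 other promyelocyte genes with enough counts, 1 exceeded 1.5 and 4 were below 0.6 in CD41low/CD9low HSCs, with a median of -0.32 on the log2 scale, and in HSCs 2 exceeded 1.5 and 0 were below 0.6. Srgn, the granule proteoglycan serglycin and the most abundant of them, had 482, 448, 295 and 323 CPM, and KO/WT of 0.943 in HSCs and 1.10 in CD41low/CD9low HSCs. Fcnb, a ficolin of granulocyte precursors, went from 125 to 4 counts in CD41low/CD9low HSCs (0.0213, 0.00572 to 0.0560), whereas Nkg7, a granule membrane protein also of lymphocytes, was 3.07-fold (2.53 to 3.74) higher in KO there. Primary granule members and other promyelocyte genes thus did not move as 1 block.

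Of 13 other secondary granule genes with enough counts, 9 were below 0.6 and 0 above 1.5 in CD41low/CD9low HSCs (median log2 -2.15), and 2 below and 0 above in HSCs (median log2 -0.12). Lyz2, lysozyme and the most abundant, had 233, 190, 368 and 278 CPM and KO/WT of 0.825 and 0.756. Chil3 was at 0.226 (0.187 to 0.272) in CD41low/CD9low HSCs. Lrg1, a secreted glycoprotein, went from 52 to 2 counts (0.0256, 0.00303 to 0.0974), and Olfm4, olfactomedin 4 of a neutrophil subset, from 42 to 0, where the limit of 3 counts is 0.157 CPM.

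Genes of gelatinase granules and mature neutrophils gave a mixed account. In CD41low/CD9low HSCs 9 of 16 with enough counts were below 0.6 and 1 above 1.5 (median log2 -1.07), and in HSCs 4 of 15 were below and 6 above. Slc2a3, a glucose transporter and the most abundant of them, had KO/WT of 1.01 in CD41low/CD9low HSCs. The metalloproteinase genes Mmp8 and Mmp9, named after their values were seen, were at 0.387 (0.298 to 0.499) and 0.210 (0.163 to 0.268) there. Il1b, the inflammatory cytokine, went from 35 to 0 counts, and Il1r2, its decoy receptor, from 0 to 15. Ly6g encodes a surface marker of mature neutrophils that the anti-Gr1 antibody of the lineage cocktail recognizes. It had 4, 9, 2 and 6 counts, near the limit of detection in every library. Ly6c1 and Ly6c2, listed with Ly6g among genes of the cocktail and the sorting gates, were named after their values were seen. Ly6c1 had 6, 3, 0 and 0 counts. Ly6c2 had 399, 493, 224 and 23 counts, and KO/WT was 1.53 (1.33 to 1.74) in HSCs but 0.0685 (0.0425 to 0.105) in the subset. Of 12 genes of that list with enough counts in the subset, 3 exceeded 1.5 and 4 were below 0.6. Of 13 in HSCs, 1 exceeded 1.5 and 3 were below 0.6. Itgam, which encodes the cocktail's CD11b, had 15.4, 9.09, 33.9 and 20.2 CPM, with KO/WT of 0.60 in HSCs and 0.599 in CD41low/CD9low HSCs.

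Regulators of granule genes were measured for 10 of 11 genes with enough counts, of which 4 exceeded 1.5 and 1 was below 0.6 in HSCs, and 1 exceeded 1.5 and 5 were below 0.6 in CD41low/CD9low HSCs. Gfi1, the paralog of Gfi1b that is known to be required for neutrophil maturation, had 11.2, 105, 32.4 and 138 CPM and KO/WT of 9.56 (8.76 to 10.5) and 4.27 (3.84 to 4.74). It was higher in both KO libraries, while the granule genes were lower in the KO library of CD41low/CD9low HSCs alone, Prtn3 excepted. Myb, the most abundant regulator, had 575, 616, 546 and 643 CPM. Cebpd was lowest in ratio in CD41low/CD9low HSCs, at 0.356 (0.236 to 0.529), against 1.91 (1.41 to 2.61) in HSCs. Cebpb had the lowest regulator ratio in HSCs, at 0.327 (0.269 to 0.396), and was at 0.512 (0.449 to 0.584) in the subset, so that unlike the other C/EBP genes it was lower in KO in both populations. Cebpa and Cebpe, singled out after their values were seen because they act at the promyelocyte and myelocyte stages, had ratios of 1.37 and 1.14 in HSCs and 0.503 (0.412 to 0.613) and 0.433 (0.310 to 0.601) in CD41low/CD9low HSCs.

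Inhibitors of the granule proteases differed less between genotypes. In CD41low/CD9low HSCs 1 of 5 with enough counts was below 0.6, namely Slpi, the secretory leukocyte protease inhibitor, which went from 33 to 14 counts (0.283, 0.140 to 0.543), and in HSCs 0 of 5 passed either limit. Serpina3g, the most abundant, had 408, 276, 434 and 296 CPM and ratios of 0.687 and 0.684. Serpinb1a, an inhibitor of elastase, cathepsin G and proteinase 3, had 103, 106, 78.5 and 70.5 CPM and ratios of 1.05 and 0.899. In CD41low/CD9low HSCs it was thus nearly level, while Elane was at 0.194, Ctsg at 0.0892 and Prtn3 at 0.555. In HSCs Elane, Ctsg and Prtn3 were at 1.24, 1.03 and 0.685.

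The other S100 genes differed among themselves. Of 8 with enough counts in CD41low/CD9low HSCs, 0 were below 0.6 and 2 (S100a3 and S100a5) were above 1.5, with a median log2 of 0.17, although S100a5 had only 5 and 16 counts and an interval (0.747 to 7.45) that included 1. S100a4 was on the same side of 1 as S100a8 and S100a9 in both populations, at 1.40 (1.28 to 1.54) in HSCs and 0.601 (0.503 to 0.719), just above the limit, in the subset, and S100a11 was at 0.716 (0.562 to 0.913) there. S100a10, the annexin partner and most abundant of them, had 89.7, 83.5, 67.5 and 78.7 CPM and ratios of 0.944 and 1.17. S100a3 had 0 counts in 3 libraries and 21 in the KO CD41low/CD9low library.

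**Figure D4:**
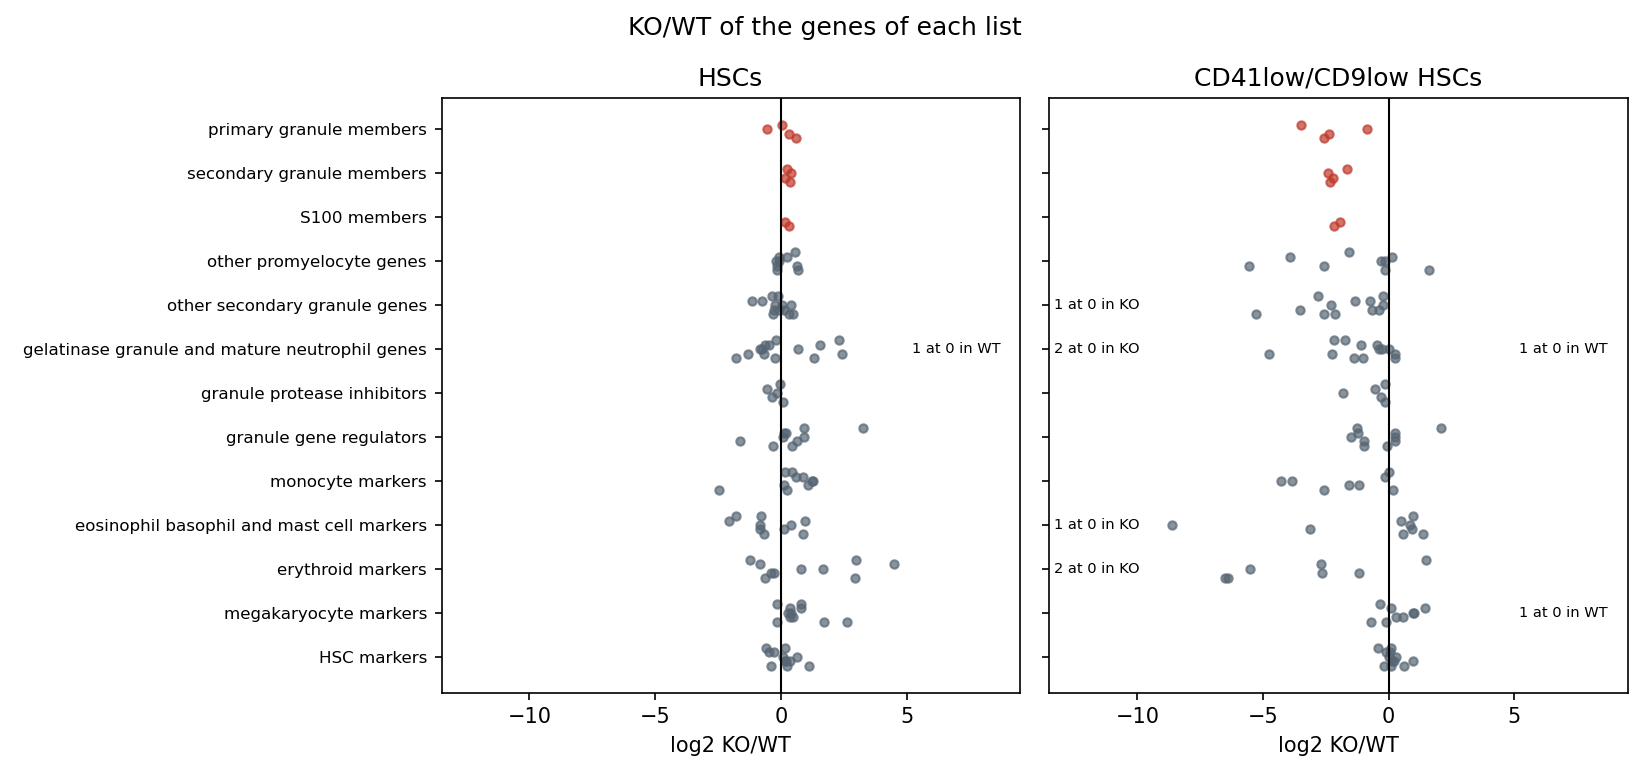
Log2 KO/WT of each gene with enough counts in the member classes (red) and in 10 other gene lists (grey), in HSCs (left) and CD41low/CD9low HSCs (right); each point is a gene, points are spread vertically only for visibility, and genes at 0 in 1 genotype are given as counts. In CD41low/CD9low HSCs the median is -2.15 for other secondary granule genes and 0.10 for HSC markers, and in HSCs the member classes lie around 0.

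Markers of other cell types that could be present in the sorted gates were read beside these results. Erythroid markers moved with the granule genes in CD41low/CD9low HSCs, where 8 of 9 were below 0.6 and 1 above 1.5 (median log2 -5.53, or -3.95 with zeros set at 3 counts). In HSCs they split, with 5 of 10 above 1.5, such as Hbb-bs (7.68), and 2 below 0.6, such as Car1 (0.426). Their summed level was 63.7, 57.2, 156 and 19.2 CPM in WT HSCs, KO HSCs, WT and KO CD41low/CD9low HSCs, so that, as for the secondary granule genes, the WT CD41low/CD9low library was the highest. Hbb-bs, a beta globin whose reads may be split with its near-identical copy Hbb-bt, had 79.2 CPM in WT and 0.941 CPM in KO CD41low/CD9low HSCs, Slc4a1 went from 246 to 4 counts, and Car1 from 55 to 0. The exception was Epor, the erythropoietin receptor gene, at 2.79 (2.03 to 3.89). Monocyte markers summed to 67.9, 104, 97.4 and 56.4 CPM, with 5 of 8 below 0.6 and 0 above 1.5 in CD41low/CD9low HSCs and 5 of 10 above 1.5 and 1 below 0.6 in HSCs. F13a1, a transglutaminase of monocytes, had the lowest ratio among them, at 0.0509 (0.0238 to 0.0966). Macrophage markers summed to 17.1 to 29.5 CPM in the 4 libraries, with 4 of 8 below 0.6 and 1 above 1.5 in CD41low/CD9low HSCs.

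Eosinophil, basophil and mast cell markers split in CD41low/CD9low HSCs, 4 of 9 above 1.5 and 3 below 0.6, with sums of 193, 166, 121 and 141 CPM. Prg2, the eosinophil major basic protein and the most abundant, had a ratio of 1.47 (1.35 to 1.59), while Prss34, a basophil protease, went from 266 counts to 1 and Cpa3, a mast cell carboxypeptidase, from 17 counts to 65. In HSCs 2 of 10, Prss34 (1.95) and Mcpt8 (1.85), were above 1.5. There 5 of 10, Epx, Ear1, Ear2, Ear6 and Fcer1a, were below 0.6, and the median log2 was -0.73. B cell markers had 2 genes with enough counts in CD41low/CD9low HSCs, 1 of them (Ighm) below 0.6, and 6 and 5 of 9 at 0 in the WT and KO library, and T and NK cell markers had 2 with enough counts, 1 of them (Cd4) below 0.6, and 7 of 10 at 0 in each. Megakaryocyte markers had 5 of 10 above 1.5 and 0 below 0.6 in CD41low/CD9low HSCs, and HSC markers 2 of 12 above and 0 below. Over all genes the shares there were 13.5% above and 12.0% below. HSC markers summed to 3028 and 3288 CPM in WT and KO CD41low/CD9low HSCs. The part of erythroid, monocyte, basophil and other cells in the granule gene values was not tested.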

How the data were processed

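RNA-seq was available for 1 library per group: WT and KO HSCs and WT and KO CD41low/CD9low HSCs. The deposited files hold raw counts per Ensembl gene, made by the authors from paired-end reads aligned with TopHat2 2.0.10 to mm10, with SAMtools and HTSeq named in the processing notes; the HTSeq strand setting and annotation release are not given in the sources used here. HTSeq's rows for reads without a feature (60.1 to 105 per 100 gene counts) and for non-unique alignments were left out of totals. CPM values used totals on genes. Ratios used median-of-ratios size factors of each pair, with at least 10 counts in 1 library, limits of 1.5 and 0.6, and exact Clopper-Pearson intervals (95%) of the KO share of counts. Lengths and overlaps came from GENCODE M21 and promoter windows from RefSeq (GRCm38.p6). Python 3.11.15, scipy 1.17.1 and, for the TMM alternative, edgeR 4.0.16 were used. Scripts were tested on simulated data. The members and gene lists were chosen with earlier results of these data known. Genes named from a list were taken mainly from those with the highest level or an extreme KO/WT ratio. Itgam and Ly6g, the members' neighbours and the genes most like them were named besides. Cebpa, Cebpe, Mmp8, Mmp9, Ly6c1 and Ly6c2 were named after their values were seen. No test was possible with 1 library per group. The sources differ on the time after tamoxifen, on the Cre status of WT mice and on the CD41 and CD9 gate of the HSCs.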

Additional observations from a re-analysis of the deposited data

Results flagged for a closer look

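For 6 of the 10 genes the KO/WT ratio was above 1 in HSCs and below 1 in CD41low/CD9low HSCs, with neither counting interval including 1. The ratios were 1.5 and 0.170 for Mpo, 1.24 and 0.194 for Elane, 1.30 and 0.199 for Ltf, and 1.32 and 0.186 for Ngp. For S100a8 they were 1.25 and 0.221, and for S100a9 1.11 and 0.261. The share of all genes that meet this rule was not computed. The genes were chosen with these ratios known, so that nothing is read from the number. With 1 library per genotype in each population, the difference was not tested against the spread between samples. The HSC ratios of these 6 genes were small, and the value of S100a9 was the smallest.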

How the results depend on the processing

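Under TMM, total-count and, where run, 4-library scaling or a pseudocount of 1, the single-gene KO/WT ratios stayed on their side of 1. S100a8 in KO, compared between populations, was 0.982, 1.0 under TMM and 1.04 under total counts, and so crossed 1. Other filters and limits were run for the numbers of members only. The number of members above the limit in HSCs was 0 in place of 1 under TMM, under total counts, with size factors over all 4 libraries and with limits of 2 and 0.5, since Mpo lay at the limit. Leaving out Prtn3, added after seeing the data, turned primary over secondary counts in CD41low/CD9low HSCs to 0.775 (WT) and 0.596 (KO), on the other side of 1. The number below the limit in CD41low/CD9low HSCs was 10 in each, and 9 with limits of 2 and 0.5. Of 170 single-gene values, 167 moved by less than their counting interval and 3, the WT comparisons between populations of Mpo (0.695), Prtn3 (1.40) and S100a9 (8.94) under total counts, moved by more. No paired analysis was possible because each group has 1 library, and no library could be left out in turn for the same reason. Depth limits Lcn2 and, in KO CD41low/CD9low HSCs, Ctsg (74 counts). Differences between mice, sorts or libraries cannot be told apart from genotype. The annotation differs between populations, and the deletion of Gfi1b was not checked from the gene counts.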
